A study of Homo sapiens with 6 samples.

Results

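The regions described here are stretches of RNA that carried a binding site of FMR1 in both libraries of the I304N mutant and in neither library of the wild-type protein. The sites of all 6 libraries of the study were pooled, and sites on the same chromosome and strand that overlapped by 1 nt or more were joined into merged regions. Of 238086 merged regions, 228477 held a site of at least 1 of the 4 FMR1 libraries, and 19797 of these had the stated pattern, which is 8.66% of the regions with an FMR1 site. The regions were chosen by the presence of I304N sites and the absence of wild-type sites, so that contrast is a description of how they were found and carries no test. Whether a region held a site of FXR1 or FXR2 was not a condition, but their sites were in the pool that was joined and could bridge sites of other libraries.

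FMR1 is the RNA-binding protein whose loss causes fragile X syndrome, and FXR1 and FXR2 are its paralogs. These proteins contact RNA through KH domains, folds that hold a short single-stranded stretch, and through a flexible tail rich in arginine and glycine. I304N exchanges an isoleucine for an asparagine in a KH domain and was first described in a patient with a severe form of the disease. The mutant is known to associate poorly with polyribosomes, the messenger RNAs in active translation, with which wild-type FMR1 associates in brain and in cultured cells.

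The 6 libraries were made by PAR-CLIP, in which a photoreactive nucleoside is built into cellular RNA, ultraviolet light crosslinks it to proteins in contact, and RNA purified with 1 protein is sequenced. I304N FMR1 isoform 1, I304N FMR1 isoform 7, wild-type FMR1 isoform 1, wild-type FMR1 isoform 7, FXR1 and FXR2 were each represented by 1 library. All were FLAG-HA-tagged transgenes in stable FlpIn T-Rex lines of HEK293, an established human embryonic kidney line, induced with 1 µg/ml doxycycline for 16 h in the presence of 100 µM 4-thiouridine, irradiated at 365 nm and trimmed with RNase T1. The labels do not say whether the cells' own FMR1 was removed, whether a line was 1 clone, or which library was run on which of the sequencer models they name. With 1 library per protein form there is no replicate error. The isoforms were not taken as replicates of each other, and no test was run. The intervals given in brackets are exact 95% Clopper-Pearson intervals, which cover counting error only, and regions of 1 library are not independent of each other.

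The I304N isoform 1 list held 132219 sites and the I304N isoform 7 list 88644. The wild-type lists were of 121903 sites for isoform 1 and 78495 for isoform 7, and those of FXR2 and FXR1 of 34521 and 9017. The lists carry no read numbers, so a site seen by few reads counts as much as one seen by many, and a region without a wild-type site is one where no wild-type site was listed. Of the I304N isoform 1 sites 20248, or 15.3% (15.1 to 15.5), lay in the I304N-only regions, and of the I304N isoform 7 sites 20172, or 22.8% (22.5 to 23.03). The regions held 840 of the FXR2 sites, 2.43% (2.27 to 2.60), and 38 of the FXR1 sites, 0.421% (0.298 to 0.578).

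The pattern took a larger part of what the I304N libraries shared than its mirror image took of what the wild-type libraries shared. Both I304N libraries had a site in 61614 regions. Of these, 32.1% (31.8 to 32.5) were without any wild-type site, 17.2% also held a site of wild-type isoform 7 alone, 15.4% also held a site of wild-type isoform 1 alone, and 35.2% held sites of all 4 FMR1 libraries. Both wild-type libraries had a site in 33753 regions, of which 4474, or 13.3% (12.9 to 13.6), were without any I304N site. These wild-type-only regions made up 1.96% of the regions with an FMR1 site. Another 20.4% of the regions shared by both wild-type libraries held a site of I304N isoform 1 alone, 2.06% a site of I304N isoform 7 alone, and 64.2% sites of all 4. The 4 lists differ in length, and the part of list length in these shares was not tested.

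Most I304N-only regions were simple, and narrower than the regions in all 4 FMR1 libraries. Exactly 1 site of each I304N library was found in 19037 of them, 96.2%. In all, 18278 (92.3%) held 2 sites and 5 held 6 sites, the most of any. Their median width was 28 nt (mean 31.3, SD 13.0 across regions, range 10 to 197 nt). The median was the same in the wild-type-only regions and 52 nt in regions of all 4 FMR1 libraries. It was 24 nt in all other regions with an FMR1 site, which include regions of a single site. The single I304N sites were also narrower than in the regions of all 4. The rule removes I304N sites that meet a wild-type site, which can favour narrow sites, so widths are given as a description. Sites of I304N isoform 1 averaged 26.1 nt (SD 10.6 across 20248 sites) in the I304N-only regions and 43.0 nt (SD 30.9 across 26601 sites) in the regions of all 4. Sites of I304N isoform 7 averaged 25.5 nt (SD 11.1) and 36.3 nt (SD 27.1) in the same order. Median site widths in the I304N-only regions and in all other FMR1 regions were 24 and 23 nt for I304N isoform 1. For I304N isoform 7 they were 23 and 24 nt.

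The sites of both isoforms lay closely on top of each other. Among 20609 overlapping pairs of an I304N isoform 1 and an I304N isoform 7 site in the I304N-only regions, 96.5% shared at least 50% of the shorter site, with a median overlap of 20 nt. The 5′ end was the same to the nucleotide in 26.8% (26.2 to 27.4), the 3′ end in 23.8% (23.2 to 24.4) and both ends in 7.65% (7.29 to 8.02). In regions of all 4 FMR1 libraries these shares among 27479 pairs were 22.9%, 23.2% (22.7 to 23.7) and 6.22%, with a median overlap of 27 nt. Of these pairs 97.7% shared at least 50% of the shorter site. As the sites of the regions in all 4 were wider, the comparison was also made for pairs of sites of up to 22 nt. There the same 5′ end was found in 35.0% (33.7 to 36.4) of 5020 pairs in the I304N-only regions and in 38.9% (36.6 to 41.3) of 1734 pairs in the regions of all 4. Both ends were the same in 15.0% and 19.8%. Over all widths, an equal 5′ end and 2 equal ends were thus more frequent in I304N-only regions, and among narrow sites less frequent. For the 3′ end over all widths the intervals overlapped. In 2 I304N-only regions the I304N sites of the 2 isoforms did not overlap directly and were joined through a site of FXR1 or FXR2.

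The rule set no condition on FXR1 and FXR2, whose sites entered it only by bridging others, as in 2 I304N-only regions and in 3 regions left out. An FXR2 site was present in 825 of the 19797 I304N-only regions, 4.17% (3.89 to 4.46), against 10.2% of all regions with an FMR1 site. The share was 34.2% (33.6 to 34.9) in regions of all 4 FMR1 libraries and 12.5% (11.6 to 13.6) in the wild-type-only regions. An FXR1 site was present in 38 I304N-only regions, 0.192% (0.136 to 0.263), against 2.76% of all regions with an FMR1 site, 7.13% (6.79 to 7.48) in regions of all 4 FMR1 libraries and 4.89% (4.28 to 5.57) in wild-type-only regions. Of the 38 I304N-only regions with an FXR1 site, 27 also held an FXR2 site. Over all regions with an FMR1 site this was 5338 of 6301. The counts were 1438 of 1545 in regions of all 4 FMR1 libraries and 154 of 219 in wild-type-only regions. For the FXR2 share and for the FXR1 share, the counting interval of the I304N-only regions was apart from that of each of these classes.

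The share of FXR sites was lower in each combination of FMR1 libraries without wild-type isoform 1 than in each combination with it, for either paralog. Regions seen in wild-type isoform 7 alone, without any I304N site, held an FXR2 site in 1.09% and an FXR1 site in 1.02%. Among combinations without wild-type isoform 1, all those with an I304N site had a lower FXR1 share than that, at most 0.541%. Regions seen in I304N isoform 1 alone had 1.88% and 0.128%, and those in I304N isoform 7 alone had 1.09% and 0.0610%. By contrast, 12.2% of the regions seen in wild-type isoform 1 alone held an FXR2 site and 5.03% an FXR1 site. Among the regions of both I304N libraries, FXR2 was present in 4.17% without a wild-type site, 8.79% with wild-type isoform 7 added, 17.0% with wild-type isoform 1 added and 34.2% with both. For FXR1 the order was 0.192%, 0.264%, 3.58% and 7.13%. When the absence of wild type was judged on isoform 7 alone, leaving out the wild-type isoform 1 library, the shares were 8.33% for FXR2 and 1.29% for FXR1. How far the low shares come from I304N and how far from wild-type isoform 1 standing apart from the other FMR1 libraries cannot be told apart with 1 library each.

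**Figure D1:**
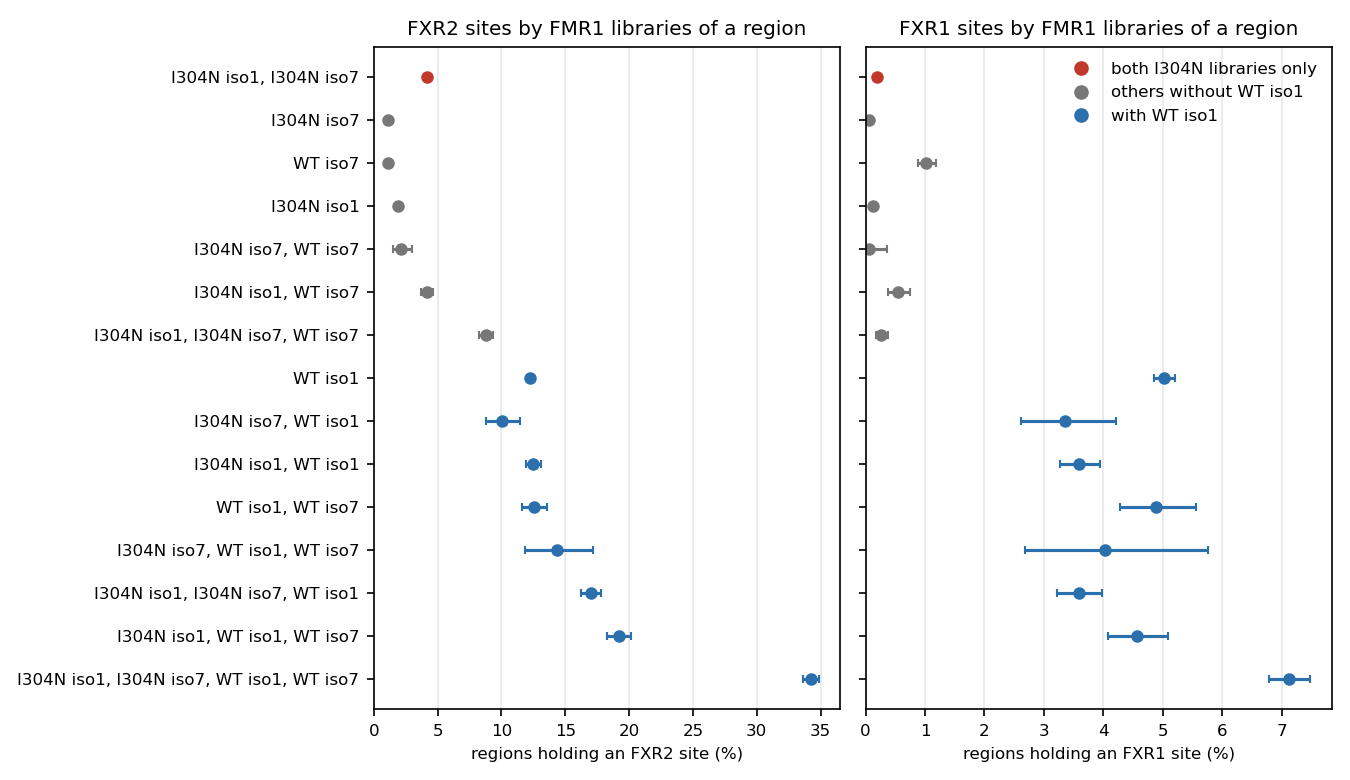
Share of merged regions holding an FXR2 site (left, percent) and an FXR1 site (right, percent) for each of the 15 combinations of FMR1 libraries, with exact 95% intervals as bars. The combinations without wild-type isoform 1 (red for the I304N-only regions, at 4.17% and 0.192%, and grey) lie between 1.09% and 8.79% for FXR2, below all combinations with it (blue, 10.1% to 34.2%).

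The difference in FXR2 sites was also seen between regions of like width from 20 nt upward. I304N-only regions of 20 to 29 nt, which were 52.1% of them, held an FXR2 site in 2.62% (2.32 to 2.94), against 7.53% (6.43 to 8.77) of the wild-type-only regions and 15.3% (13.9 to 16.8) of the regions of all 4 FMR1 libraries of that width. At 40 to 59 nt the shares were 7.87% (6.88 to 8.95), 22.8% (19.6 to 26.2) and 27.4% (26.2 to 28.6) in the same order. At 60 nt or more they were 10.7% (8.64 to 13.0), 35.7% (30.4 to 41.4) and 50.6% (49.5 to 51.6). Below 20 nt the I304N-only regions had 2.50% (1.76 to 3.45) and the wild-type-only regions 3.08% (1.73 to 5.03), and these intervals overlapped. The regions of all 4 FMR1 libraries of that width, only 73, had 24.7% (15.3 to 36.1). The FXR1 share changed more than 1.5 times with wide sites: it was 0.694% when all sites of 60 nt or more had been left out before joining.

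**Figure D2:**
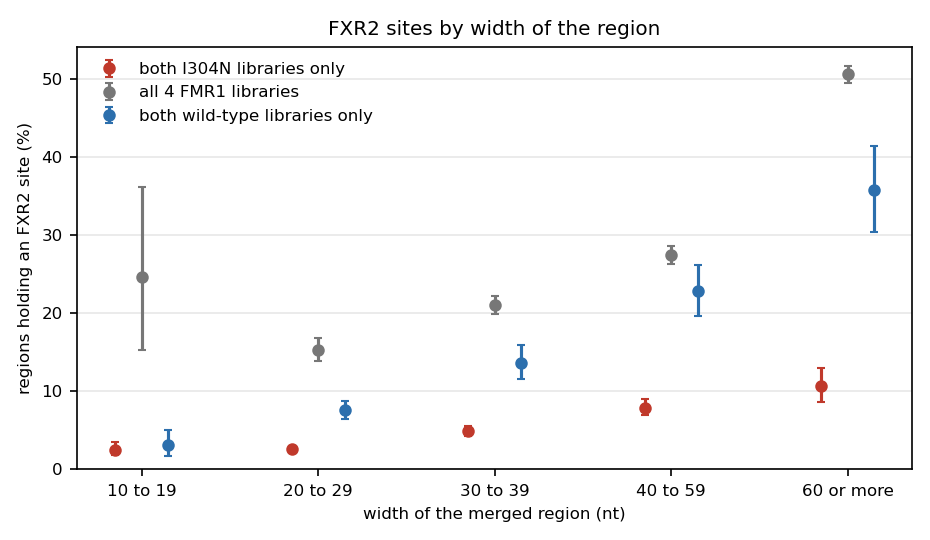
Share of regions holding an FXR2 site (percent) against the width of the merged region (nt) for I304N-only regions (red), regions in all 4 FMR1 libraries (grey) and wild-type-only regions (blue), with exact 95% intervals. The red points run from 2.50% at 10 to 19 nt to 10.7% at 60 nt or more and lie below the blue and grey ones from 20 nt upward.

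The few regions with sites of both I304N libraries, FXR1 and FXR2 lay mostly beside wild-type sites. The median gap of the 27 to the nearest wild-type site was 42 nt, with a range of 2 to 96106 nt, and their median width was 35 nt. The farthest lay on chromosome 9 from 15687395 to 15687426 (plus strand), 96106 nt from any wild-type site, and was marked as a repeat. The next was on chromosome 19 from 55903618 to 55903639 (minus strand), 9293 nt away and also in a repeat. The third, on chromosome 14 from 69262597 to 69262615 (minus strand), lay 5792 nt away and outside repeats. Each of these 3 held exactly 1 site of each I304N library, 1 of FXR1 and 1 of FXR2.

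Distances to the paralogs were taken over all regions, with overlapping ones at 0. The median gap to the nearest FXR2 site on the same strand was 2925 nt for I304N-only regions, 409 nt for wild-type-only regions and 1143 nt for all regions with an FMR1 site. An FXR2 site lay within 1000 nt of 37.4% (36.7 to 38.1) of the I304N-only regions, against 59.6% (58.2 to 61.1) of the wild-type-only regions and 48.6% of all. For FXR1, the shortest list, the median gap was 213997 nt for I304N-only regions, 6033 nt for wild-type-only regions and 60041 nt for all, and 5.77%, 34.6% and 20.9% had a site within 1000 nt. Most regions of each class therefore had no FXR1 site within 1000 nt. These were 94.2% of the I304N-only regions, 65.4% of the wild-type-only regions and 79.05% of all.

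Wild-type sites lay nearer to the I304N-only regions than FXR sites did, but their lists were longer. They held 121903 and 78495 sites, against 34521 for FXR2 and 9017 for FXR1. The part of list length in these gaps was not tested, and the gap of other FMR1 regions to wild-type sites was not computed. The median gap to the nearest wild-type FMR1 site was 159 nt (quartiles 36 and 1079 nt), and such a site lay within 20 nt of 16.1% (15.6 to 16.7), within 100 nt of 42.4% (41.7 to 43.1) and within 1000 nt of 74.3% (73.7 to 74.9). No wild-type site lay within 1000 nt of 5089 regions, 25.7% (25.1 to 26.3), and none within 10000 nt of 1685, 8.51% (8.13 to 8.91). Each wild-type library moved these values when it was left out, both from the rule and from the sites to which the gap was taken. With isoform 7 left out, the median gap to a wild-type isoform 1 site was 492 nt and 41.4% were beyond 1000 nt. With isoform 1 left out, the median gap to a wild-type isoform 7 site was 248 nt and 30.9% were beyond 1000 nt. The mirror value of the full rule was close: wild-type-only regions had a median gap of 146.5 nt (quartiles 36 and 998.2 nt) to the nearest I304N site, and 74.99% (73.7 to 76.3) had one within 1000 nt. The I304N-only regions were nearer to wild-type isoform 7 sites, with a median of 312 nt, than to the more numerous wild-type isoform 1 sites, with a median of 611 nt. The gap is bounded by the rule, which removes regions that overlap a wild-type site.

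**Figure D3:**
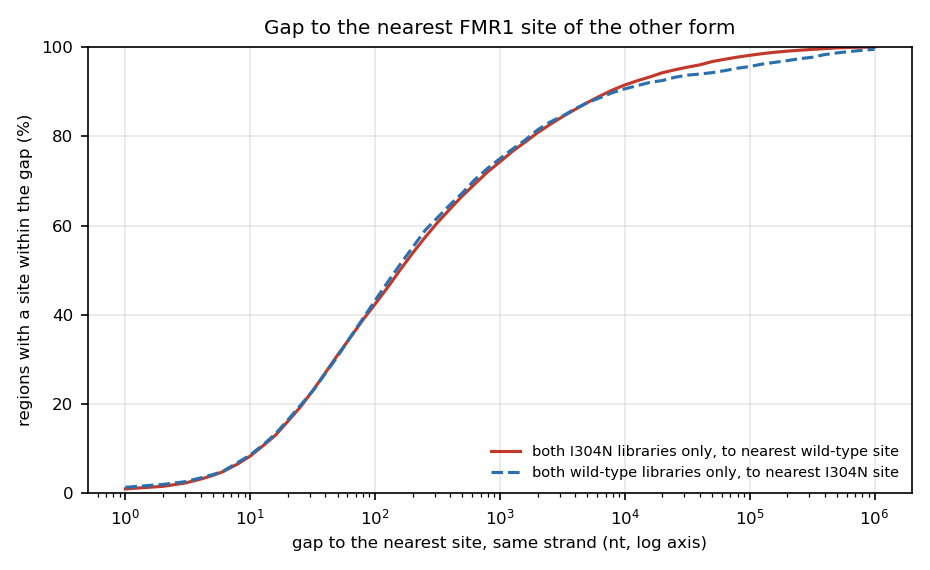
Cumulative share of regions (percent) with an FMR1 site of the other form within a given gap on the same strand (nt, log axis), for I304N-only regions to the nearest wild-type site (red line) and wild-type-only regions to the nearest I304N site (dashed blue line). The curves run together, reaching 42.4% and 43.2% at 100 nt and 74.3% and 74.99% at 1000 nt.

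At the edge of the rule, 57 of the I304N-only regions (0.288%) touched a wild-type site end to end without sharing a nucleotide. Of these, the region on chromosome 1 from 16274798 to 16274827 (minus strand) and that on chromosome 1 from 52841132 to 52841161 (minus strand) were each 30 nt wide with 1 site of each I304N library. Just outside the rule, among 41817 regions of both I304N libraries with a wild-type site, 158 (0.378%) shared 1 to 5 nt between an I304N and a wild-type site. In 3 the I304N sites shared none and were joined to wild type through other sites, as on chromosome 3 from 57542595 to 57542649 (plus strand), where an FXR2 site was part of the region.

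The side of the nearest wild-type site was close to even. Where a wild-type site lay within 50 nt, it was downstream of the I304N-only region in 51.7% (50.4 to 52.9). For wild-type-only regions the nearest I304N site within 50 nt was downstream in 44.2% (41.5 to 46.9), and within 1000 nt in 44.2% (42.5 to 45.9), so that it lay more often on the 5′ side.

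The other properties of the I304N-only regions varied with this gap. FXR2 sites were present in 6.26% (5.44 to 7.15) of the 3197 regions up to 20 nt from a wild-type site, 5.19% of the 5201 at 21 to 100 nt, 3.71% of the 6310 at 101 to 1000 nt and 2.20% (1.74 to 2.75) of the 3404 more than 1000 and up to 10000 nt away. Beyond 10000 nt the share was 2.73% (2.01 to 3.62) of 1685, whose interval overlaps that of the class before. Sites in repeats showed no steady order: the share was 2.35% (1.85 to 2.93) up to 20 nt, 3.13% and 3.25% in the next classes, 1.91% (1.48 to 2.43) in the class up to 10000 nt and 5.70% (4.64 to 6.91) beyond it. Chromosome 19 held 11.1% (10.0 to 12.2) of the nearest class, 14.6% of the regions at 101 to 1000 nt and again of the class up to 10000 nt, and 9.08% (7.75 to 10.6) of the most remote.

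Chromosome 19, one of the chromosomes richest in genes, stood out in the I304N-only regions. It held 2605 of them, 13.2% (12.7 to 13.6), against 6.45% (6.35 to 6.56) of all other regions with an FMR1 site, 7.03% (6.69 to 7.38) of the regions in all 4 FMR1 libraries and 2.32% (1.90 to 2.81) of the wild-type-only regions. The I304N-only share was 2.04 times that of the other regions. The shares on chromosomes 7, 9, 11, 14, 16, 17, 20 and 22 were also higher than in the other regions, with intervals apart. Among chromosomes 1 to 22 and X, a total of 11 chromosomes had a lower share with intervals apart. After chromosome 19 the ratio was highest on chromosome 22, at 1.46, and chromosomes 17 and 20, both at 1.30. Among these 23 it was lowest on chromosome 4, at 0.537, chromosome 13, at 0.545, and chromosome 5, at 0.576.

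The chromosome 19 share was highest in the combinations of FMR1 libraries that held I304N isoform 7 and lacked wild-type isoform 1. It was 13.2% in the I304N-only regions, 12.8% in regions of I304N isoform 7 alone, 11.8% in regions of both I304N libraries and wild-type isoform 7, and 9.75% in regions of both isoform 7 libraries. With wild-type isoform 1 it was at most 7.38% in any combination, with 7.04% for I304N isoform 7 and wild-type isoform 1, and 4.02% when wild-type isoform 7 was added to these. Regions of I304N isoform 1 alone had 8.21%, those of wild-type isoform 7 alone 4.59%, and those of wild-type isoform 1 alone 4.10%. Over whole lists, the isoform 1 sites lay there in 8.16% for I304N and 4.91% for wild type, and the isoform 7 sites in 10.1% for I304N and 6.37% for wild type.

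Part of a chromosome's share can come from how many sites of any kind it holds, so the regions were also counted against the regions that both libraries of a form shared on the same chromosome. Of 6085 regions with sites of both I304N libraries on chromosome 19, 42.8% (41.6 to 44.1) were without a wild-type site. The share was 37.7% (35.8 to 39.6) on chromosome 11 and 36.4% (34.4 to 38.5) on chromosome 14, and the lowest were 23.02% (21.4 to 24.7) on chromosome 5 and 23.9% (21.3 to 26.7) on chromosome 13. The mirror share ran the other way on chromosome 19: of 1824 regions with sites of both wild-type libraries there, 5.70% (4.68 to 6.87) were without an I304N site. That was the lowest of the 23 chromosomes, against 21.4% (17.5 to 25.8) on chromosome 18 and 20.2% (17.6 to 22.9) on chromosome 4.

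**Figure D4:**
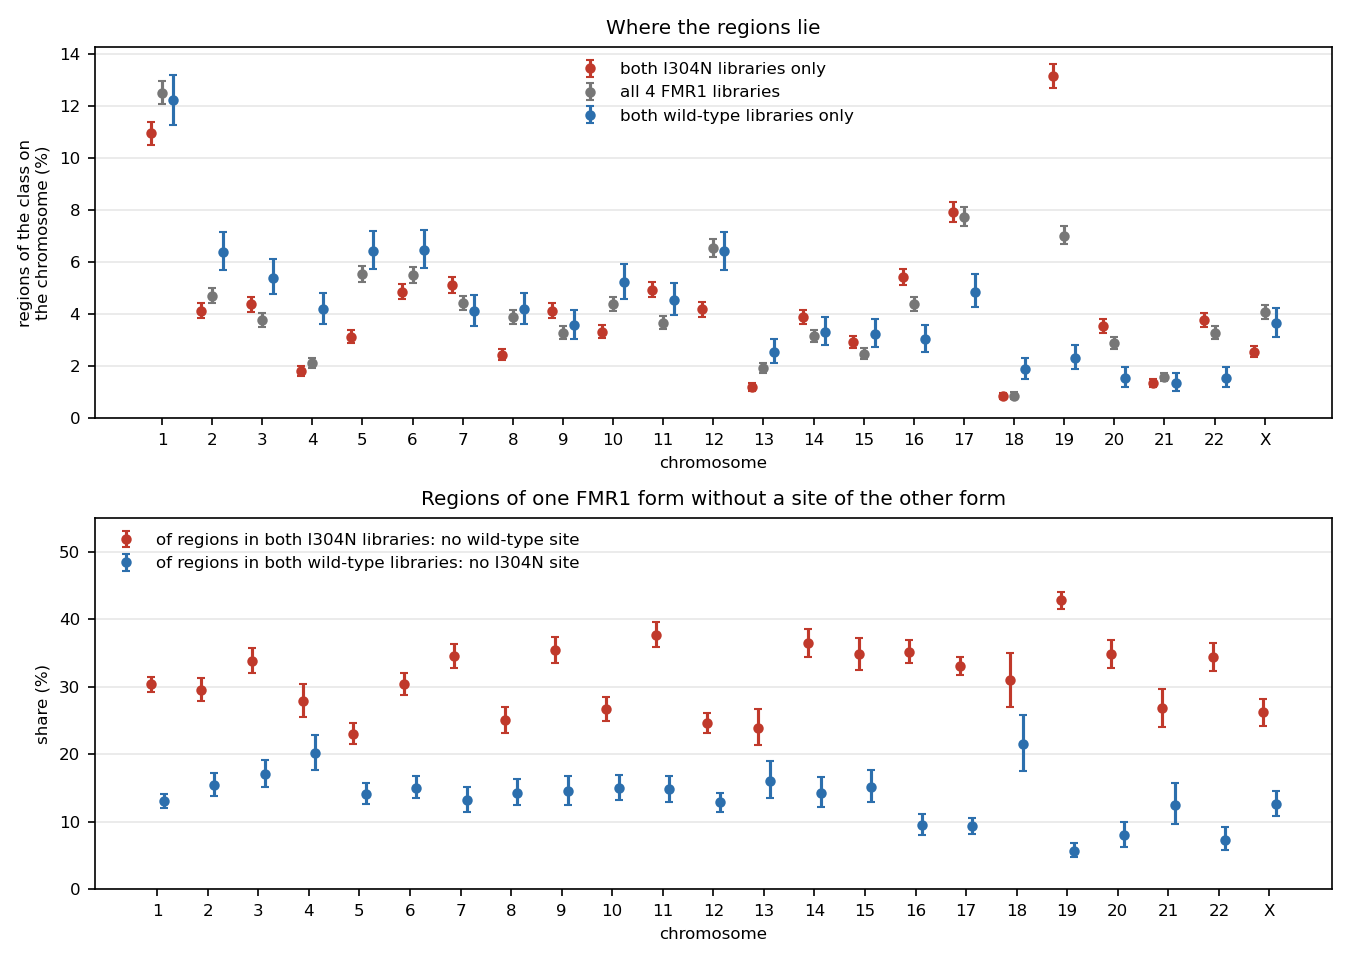
Top, share of I304N-only regions (red), of regions in all 4 FMR1 libraries (grey) and of wild-type-only regions (blue) on each chromosome, in percent. Bottom, share of regions with sites of both libraries of a form that had no site of the other form, in percent (red for I304N, blue for wild type). Bars are exact 95% intervals. On chromosome 19 the red point is highest in both panels, at 13.2% and 42.8%, and the blue point of the lower panel is lowest, at 5.70%.

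Within chromosomes the regions were unevenly spread. Among bins of 5 Mb with at least 500 regions carrying an FMR1 site, I304N-only regions made up the largest share on chromosome 19 from 15000001 to 20000000, with 358 of 1500 or 23.9% (21.7 to 26.1), and none of the 1500 was wild-type-only. The next were chromosome 19 from 10000001 to 15000000, at 20.7% (18.7 to 22.7), and chromosome X from 45000001 to 50000000, at 20.5% (17.5 to 23.6). On chromosome 12 from 65000001 to 70000000 the share was 1.16% (0.469 to 2.38), 7 of 602 regions, the lowest of these bins, and 14 were wild-type-only. Chromosome 19 was not high throughout: from 20000001 to 25000000 it had 11 I304N-only regions among 326, 3.37% (1.70 to 5.96), and 12 wild-type-only ones. Over all regions with an FMR1 site, 1.96% were wild-type-only. The bins were ranked by their I304N-only share, so their wild-type-only counts are descriptions. The genes of these stretches were not analysed here.

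Repeats were less frequent than in most other classes, but near the share of repeat sites in the whole I304N lists. Of the I304N-only regions 604, or 3.05% (2.82 to 3.30), held a site that the authors marked as lying in a repeat, against 5.10% (4.81 to 5.40) of the regions in all 4 FMR1 libraries, 9.01% (8.18 to 9.88) of the wild-type-only regions and 5.08% (4.99 to 5.17) of all other regions with an FMR1 site. Regions of I304N isoform 1 alone had 2.73% and those of I304N isoform 1 with wild-type isoform 7 had 2.55%, while regions of I304N isoform 7 alone had 4.44%. In the 4 combinations with I304N isoform 1 and without wild-type isoform 1 the share was at most 3.22%. Of all sites listed, 3.03% were in repeats for I304N isoform 1 and 3.48% for I304N isoform 7. For wild type these were 5.35% for isoform 1 and 4.51% for isoform 7. The strands were used about equally, with 50.8% (50.1 to 51.5) of the I304N-only regions on the plus strand.

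Many I304N-only regions lay close to each other; the spacing of other FMR1 regions was not computed. Another such region lay within 200 nt of 38.0% (37.4 to 38.7), within 1000 nt of 60.3% (59.7 to 61.02) and within 10000 nt of 81.6% (81.1 to 82.2). Where neighbours less than 200 nt apart with no wild-type site between them were taken as a run, 31.7% of the regions belonged to a run of 2 or more, and 72 runs had 5 or more. The longest run had 11 regions in 935 nt on chromosome 19 from 49253584 to 49254518 (minus strand). It held 11 sites of I304N isoform 1, 11 of I304N isoform 7 and none of FXR1 or FXR2. The nearest wild-type site was 113 nt outside it. A run of 10 regions on chromosome 15 from 40758888 to 40759827 (plus strand) ended 16 nt from a wild-type site and held 1 FXR2 site. A further run of 10 lay on chromosome 1 from 52498486 to 52499268 (minus strand), 6 nt from a wild-type site.

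Some runs stood far from wild-type sites. On chromosome 1 from 9663929 to 9664692 (plus strand), 9 regions with 12 sites of I304N isoform 1 and 10 of I304N isoform 7 lay 1759 nt from the nearest wild-type site. On chromosome 19 from 44235350 to 44235824 (minus strand), 7 regions in 475 nt lay 5949 nt from one. On chromosome 1 from 36557303 to 36557684 (plus strand), 7 regions in 382 nt lay 1466 nt from one. None of these 3 runs held an FXR1 or FXR2 site, and of all I304N-only regions 4.22% held one.

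The regions with most sites were wider than the median of 28 nt over all I304N-only regions, and joining more sites can widen a region. On chromosome 19 from 1578387 to 1578535 (minus strand), 149 nt held 3 sites of I304N isoform 1, 2 of I304N isoform 7 and 1 of FXR2, with a wild-type site 25 nt away. On chromosome 16 from 417518 to 417637 (minus strand), 120 nt held 2, 3 and 1 sites of the same proteins, 1433 nt from the nearest wild-type site. On chromosome 1 from 3712467 to 3712575 (minus strand), 1 site of each I304N library was joined with 4 sites of FXR2. All of these lay outside repeats.

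Over longer distances, the regions were counted in windows of 50 kb on 1 strand. Of 21932 windows with an FMR1 region, mitochondrial ones left out, 6261 (28.5%) held an I304N-only region, 2866 held exactly 1, and the 402 with 10 or more held 28.4% of all of them. In 2844 windows they lay together with a region of all 4 FMR1 libraries, and these windows held 61.6% of the I304N-only regions. In 843 windows they lay without any wild-type site, with at most 8 in a window, and these held 5.89% of them. Among the 3621 windows with at least 20 FMR1 regions, the median share of I304N-only regions was 4.65% (quartiles 0 and 14.3%), 1093 had none, and in 17 they made up 50% or more.

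The window with most I304N-only regions lay on chromosome 22 from 39250001 to 39300000 (minus strand), where they were 34 of 77 FMR1 regions, 44.2% (32.8 to 55.9). It held 77 sites of I304N isoform 1 and 70 of I304N isoform 7, against 18 of wild-type isoform 1 and 20 of wild-type isoform 7. With sites scaled to the length of each list, the I304N library was 3.94 times as dense as wild type for isoform 1 and 3.10 times for isoform 7. All libraries but FXR1 thus had sites here, and the wild-type sites lay elsewhere in the window. The second, on chromosome 19 from 1550001 to 1600000 (minus strand), had 33 of 117 and held 102 and 91 I304N sites of isoforms 1 and 7, against 37 and 60 wild-type sites. The third, on chromosome 15 from 40750001 to 40800000 (plus strand), had 31 of 65, with 58 and 55 against 16 and 12 sites. The windows were picked by the regions they held, so these ratios are descriptions.

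A high count of I304N-only regions did not need a large surplus of I304N sites. On chromosome X from 153250001 to 153300000 (minus strand), 26 of 120 FMR1 regions were I304N-only, while the sites numbered 79 of I304N isoform 1 and 90 of I304N isoform 7, against 63 of wild-type isoform 1 and 36 of wild-type isoform 7. The scaled ratio was 1.16 for isoform 1 and 2.21 for isoform 7. On chromosome 17 from 79800001 to 79850000 (minus strand), 25 of 156 were I304N-only with ratios of 1.37 and 1.77, and 31 regions held sites of all 4 libraries. Of the 15 windows with most I304N-only regions, 4 lay on chromosome 19.

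By share, the first window lay on chromosome 19 from 15200001 to 15250000 (minus strand), with 18 of 27 FMR1 regions or 66.7% (46.0 to 83.5). It held 22 sites of I304N isoform 1 and 26 of I304N isoform 7, against 2 of wild-type isoform 1 and 1 of wild-type isoform 7. The window on chromosome 19 from 49250001 to 49300000 (minus strand), which contains the longest run, followed with 21 of 32, 65.6% (46.8 to 81.4). On chromosome 1 from 36550001 to 36600000 (plus strand) 17 of 27 regions were I304N-only, with 24 and 22 I304N sites of isoforms 1 and 7 against 2 and 2 wild-type sites. FXR1 had no site in any of the 10 windows with the largest share, and FXR2 had from 0 to 4. These windows held from 20 to 36 FMR1 regions each. Of all regions with an FMR1 site, 2.76% held an FXR1 site and 10.2% an FXR2 site. The windows were picked by I304N-only regions, whose FXR shares were low, so these counts are descriptions. FXR sites per window were not compared with all windows. No wild-type-only region lay in any of the 25 windows chosen by count or by share, against 1.96% of all regions with an FMR1 site. Choosing windows by their I304N-only regions can favour few wild-type-only ones, so this is a description.

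**Figure D5:**
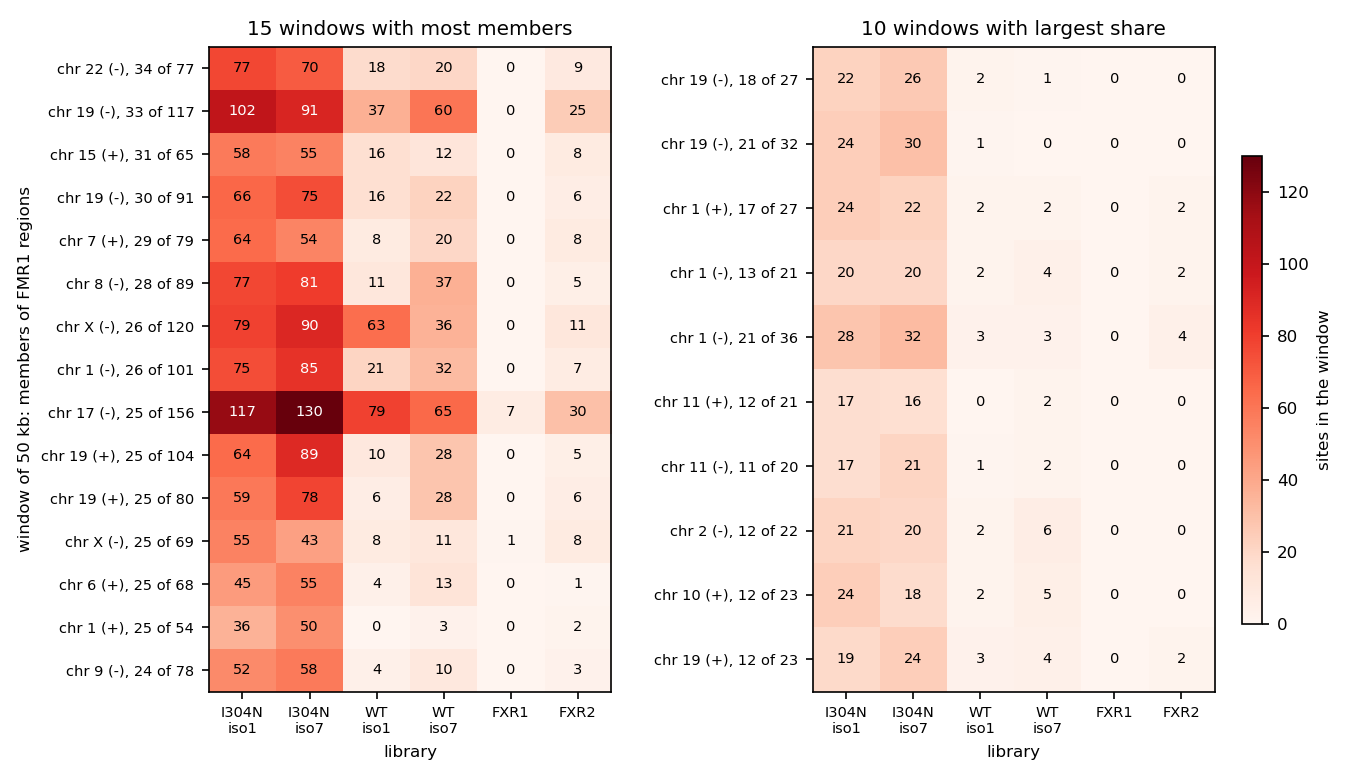
Number of sites of each library (columns, I304N libraries first) in the 15 windows of 50 kb with most I304N-only regions (left) and the 10 with the largest share of them (right). Rows give the chromosome, the strand and the I304N-only regions ("members") out of all FMR1 regions; darker cells hold more sites. The I304N columns exceed the wild-type columns of the same isoform in each row, from 77 against 18 and 70 against 20 in the first row of the left panel.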

How the data were processed

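Each library was assigned to the protein form that its labels name as immunoprecipitated. The submitters' processing notes name Bowtie 0.12.7 and the build hg19. For the site caller and its thresholds, the sources used here give no name or value. The deposited lists give start, end and strand of each site (hg19), and the deposited score is a flag, 1000 outside repeats and 0 in a repeat, per the file headers. They hold no read numbers, so depth is known only as sites per list.

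Sites were joined by overlap of 1 nt or more per strand, gaps were taken edge to edge on the same strand, and shares carry exact 95% Clopper-Pearson intervals (Python 3.11.15, pandas 2.3.3, numpy 2.4.6, scipy 1.17.1, figures with matplotlib 3.10.9). PCR reads without molecular identifiers are not independent molecules, and the intervals cover counting error only. Joining and gap search were tested on simulated data. A limit for a count of 0 uses 3 counts.

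Windows named were the 15 with most I304N-only regions and the 10 with the largest share among windows with at least 20 FMR1 regions. Single regions named were those with most sites, the longest runs, those with both paralogs farthest from wild type, and those nearest the rule's limit; the text gives a selection of each. Bins of 5 Mb, the highest and lowest by share, were added after the data had been seen. The regions and rules were chosen with earlier results of these data known. Genes, transcript parts, gene lists and sequence motifs were part of the plan but were not analysed here, since the annotation at hand is of another build, GRCh38, with no genome sequence. Alternatives covered the overlap, strand, repeats, mitochondrial sites, wide sites, the gap to wild type and each wild-type library.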

Additional observations from a re-analysis of the deposited data

How the results depend on the processing

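Of 63 alternative values, 36 stayed within the counting interval of the value reported, or within 1.5 times for the count of regions, and 27 moved further. Ignoring strand and requiring a direct overlap of the I304N sites moved none of the 7 results. Leaving out mitochondrial sites could not move any of the 7, since no I304N-only region was mitochondrial. These values are still counted among the 36. Where sites had to share 50% or more of the shorter one, FXR2 was at 3.72%, FXR1 at 0.130%, 24.8% of regions had no wild-type site within 1000 nt and the median gap was 143 nt. With repeat sites left out the repeat share was 0 by construction. Requiring no wild-type site within 100 nt left 11399 regions, with FXR2 at 3.11%, FXR1 at 0.123%, chromosome 19 at 13.8%, 44.6% beyond 1000 nt and a median gap of 734 nt, the last 2 by construction. Without wild-type isoform 1 there were 29310 regions, against 19797 with it, a change just within 1.5 times. In that setting FXR2 was at 8.33%, FXR1 at 1.29%, chromosome 19 at 11.3% and repeats at 3.48%. There, 30.9% were beyond 1000 nt and the median gap was 248 nt. Without wild-type isoform 7 there were 30417 regions, with FXR2 at 5.78%, chromosome 19 at 12.7%, 41.4% beyond 1000 nt and a median gap of 492 nt. Where a wild-type library was left out, the gap was taken to sites of the other one only. With sites of 60 nt or more left out, FXR2 was at 5.35%, FXR1 at 0.694%, chromosome 19 at 12.5%, 24.5% beyond 1000 nt and the median gap 137 nt. The cause of these moves was not tested. In every one of these settings FXR2 stayed below 10.2%, FXR1 below 2.76% and chromosome 19 above 6.45%. The FXR values are shares over all regions with an FMR1 site, and that of chromosome 19 is over the other FMR1 regions. These shares are those of the main rule and were not recomputed for each setting, so a like comparison within a setting was not made. Alternatives on transcript parts, genes and motifs were not run, as their results were not analysed here. No paired analysis was possible because the groups share only 1 replicate number. A fit that takes the isoforms as pairs was not run, since the regions were chosen by the contrast it would test. Presence and absence depend on list length, and list length could not be separated from binding.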

Other observations

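On the mitochondrial genome, wild-type-only regions were present and I304N-only regions were not found. None of the 240 merged regions with an FMR1 site on it was I304N-only, which at 3 counts allows a share of up to 1.25%, while 63, or 26.3% (20.8 to 32.3), were wild-type-only and 26 held sites of all 4 FMR1 libraries. Mitochondrial sites numbered 72 in I304N isoform 1 and 86 in I304N isoform 7, against 146 and 242 in the wild-type libraries of isoforms 1 and 7, with 18 in FXR1 and 35 in FXR2. Mitochondrial regions made up 1.41% of the wild-type-only regions (1.08 to 1.80).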
